A study of Mus musculus with 18 samples.

Results

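Macrophages grown from the bone marrow of wild-type (WT) mice were compared after 8 h with lipopolysaccharide (LPS) and after 8 h with its vehicle, phosphate-buffered saline. The sample titles put 3 arrays in each of these groups, 6 of the 18 arrays in a study that also profiled WT cells at 0 h and cells of Klf3 knockout (KO) mice under the same conditions. The marrow came from male FVB/NJ mice of 10 to 14 weeks, and the cells had differentiated over 7 to 10 days in L929-conditioned medium, which supplies the growth factor M-CSF. Before treatment this medium was exchanged for regular medium in LPS and vehicle cultures alike, so both groups had spent 8 h without fresh conditioned medium, and LPS was given at 100 ng/mL. RNA from each culture was read on 1 array of an Affymetrix HT MG-430PM plate. The labels do not say whether the 3 arrays of a group come from separate mice, so p-values measure the spread between these samples, which may be technical. Each array reads a whole culture, in which fewer cells of a type and less RNA per cell cannot be told apart.

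LPS is the lipid-anchored sugar coat of Gram-negative bacteria. Macrophages bind it with CD14 and with the receptor complex of TLR4 and MD-2 (encoded by Ly96). The adaptor MyD88 carries the signal to NF-kB and the MAP kinases, which switch on cytokine genes, and the adaptor TRIF (encoded by Ticam1) carries it to IRF3 and interferon beta. Secreted interferon then acts back on the cells through its receptor and switches on a further set of antiviral genes. By 8 h both arms and their feedback are normally under way, so the RNA at this time holds primary targets of the receptor and genes driven by what the cells have secreted.

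The arrays of the 2 groups formed 2 clear sets. Over the 6 arrays, component 1 of a principal component analysis explained 75.2% of the variance, with LPS on one side and vehicle on the other, and component 2 explained 11.9% and set LPS array 1 (43.76) apart from LPS arrays 2 and 3 (-15.77 and -27.74). Correlations across genes were 0.994 between vehicle arrays, 0.978 to 0.985 between LPS arrays and 0.938 to 0.948 between a vehicle and an LPS array. The labelled wells put the LPS arrays in plate rows E and F and the vehicle arrays in rows C and D, so effects of the row and of LPS cannot be told apart. The deposited upper quartile was 66.6 to 75.7 in the LPS arrays and 109.5 to 124.9 in the vehicle arrays, which makes the scaling between arrays matter for small differences. The Gapdh controls read the 5′ end lower than the 3′ end, and this gap, a measure of RNA integrity and labelling, was -0.38 ± 0.294 (log2, SD, n = 3) after LPS and -0.168 ± 0.0853 after vehicle, with an exact two-sided permutation p of 0.4, where 0.1 is the smallest p that 3 against 3 arrays allow. Its part in the results was not tested.

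The cultures read as macrophages. Adgre1, the gene of the macrophage surface protein F4/80, gave 2500.2, 2109.6 and 2376 in the vehicle arrays and 2940.0, 2883 and 2228 in the LPS arrays, so the groups overlapped. Csf1r, the M-CSF receptor, gave 4057, 3982 and 4158 in the vehicle arrays and 2365, 3079.8 and 2615 in the LPS arrays, and it fell by 0.61 ± 0.12 (log2 ± SE). Of the 9 macrophage markers measured, Fcgr1 (2.95) rose under every scaling of the arrays, Csf1r (-0.61) and Mertk (-0.99) fell, Cd14 and Cd68 passed under the main scaling but not under every other one, and the other 4 did not pass under the main scaling. Of 7 monocyte markers 4 were higher and 0 lower, with Ly6c1 (3.59), Vcan (2.06) and Hp (6.43) rising under all scalings. The sum over all 7 was 1908 to 2663 in the vehicle arrays and 4094 to 6578 in the LPS arrays. Hp, also an acute-phase gene, made up most of this sum after LPS and little of it after vehicle. Of 7 dendritic cell markers Fscn1 (at least 48.8-fold) and Ccr9 (at least 2.93-fold) rose. The other 5, Flt3 and Zbtb46 among them, lay under the nonspecific level (defined below) in all 6 arrays. The sum over all 7 was 52.9 to 67.4 after vehicle and 581 to 1067 after LPS, and Fscn1 made up most of it after LPS. The part of other cell types in the results was not tested. Among 10 T and NK cell markers, 8 B cell markers and 12 stromal markers, 7, 6 and 9 lay under the nonspecific level in all 6 arrays. Summed over the 9 macrophage markers the level was 31010 to 31240 in the vehicle arrays and 34290 to 35670 in the LPS arrays. Of 10 neutrophil markers 2 rose, Camp (at least 13.3-fold) and S100a8 (3.70), 2 were lower, and the sum was 309.6 to 419.4 and 581 to 923.5. Calls in either direction (defined below) covered 57.1% of the monocyte, 28.6% of the dendritic cell and 40.0% of the neutrophil markers, against 32.3% of all genes. The neutrophil granule genes Mpo and Ltf read 6.81, 8.44 and 6.90 in the vehicle arrays and 6.93, 3.81 and 7.92 in the LPS arrays for Mpo and 6.90, 8.69 and 8.01 in the vehicle arrays and 7.28, 8.59 and 7.41 in the LPS arrays for Ltf. Both lay under the nonspecific level in all 6 arrays.

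The response was broad. Of 17097 genes, each read by the probe set with its highest mean, 2347 (13.7%) were higher and 3175 (18.6%) lower after LPS, 32.3% in all (limma, Benjamini-Hochberg adjusted p below 0.05 over all genes). At least 2-fold changes were found for 899 and 1270 genes, at least 4-fold changes for 348 and 311, and at least 16-fold changes for 86 and 21. Small differences depended on how the arrays were scaled. The median difference over all genes was -0.0072 (log2) after quantile normalization, the main scaling, but -0.442 with the deposited values, -0.0544 with equal array medians and -0.428 with equal hybridisation controls. Calls that held in the same direction under all 4 scalings numbered 623 (3.64%) higher and 2928 (17.1%) lower, and all 348 and 311 changes of at least 4-fold were among them. The genes described as risen or fallen below passed under all 4 scalings, with the 3 LPS arrays wholly above or below the 3 vehicle arrays, unless a sentence says otherwise.

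Many genes crossed from silent to expressed or the reverse. As set by the 95th percentile of 23 control probe sets for nonspecific signal, a level of 13.1 to 23.2 intensity units (by array) served to mark absent signal. Called genes that went from under it in every vehicle array to over it in every LPS array numbered 87, and 131 went the other way. In all, 9371 genes lay over the level in every vehicle array and 8715 in every LPS array. The level was highest in LPS array 1 (23.2, against 13.1 to 16.9 in the vehicle arrays), so a gene had to be brighter there to count. How much of the difference between these counts follows from that was not tested. For genes with 1 group at or under the level throughout, the change is given as at least N-fold, measured against that level. All other differences are log2 ± SE.

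**Figure D1:**
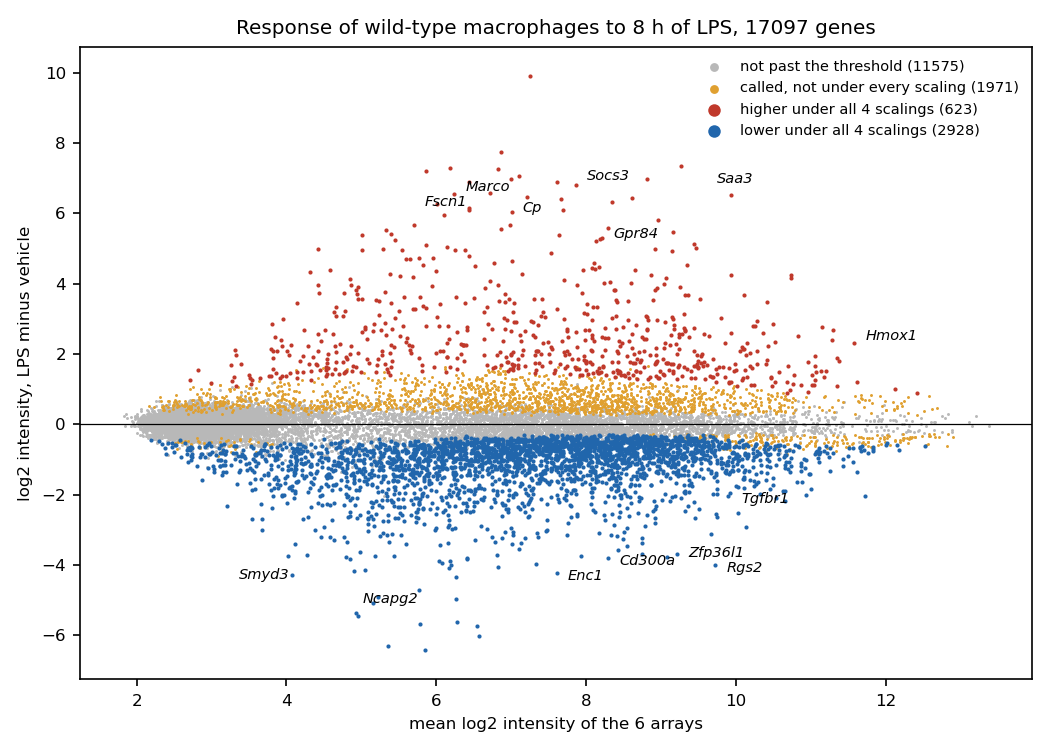
Log2 intensity difference (LPS minus vehicle) of 17097 genes against their mean log2 intensity over the 6 WT arrays, coloured by call. Red and blue points are the 623 higher and 2928 lower genes called under all 4 scalings, orange points were called under the main scaling but not under every other one, and grey points were not past the threshold. Orange points fill the band of small rises, and large changes of either sign are red or blue.

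The largest rise was that of Lcn2, which binds the iron carriers of bacteria (at least 319-fold), and besides cytokines the 25 largest rises held genes of many other kinds. AA467197, now known as Nmes1, which encodes a small mitochondrial protein, gave 5.94, 8.58 and 10.0 in the vehicle arrays and 1475, 704 and 807 in the LPS arrays and rose at least 63.6-fold (adjusted p = 1.51e-11). Marco, a scavenger receptor that binds bacteria, gave 10.9, 5.30 and 8.33 in the vehicle arrays and 701, 972 and 575 in the LPS arrays and rose at least 49.3-fold. Fscn1, the actin-bundling protein of mature dendritic cells, gave 12.4, 7.53 and 12.3 in the vehicle arrays and 488, 822 and 947 in the LPS arrays and rose at least 48.8-fold. All 3 were near background in every vehicle array and clearly expressed in every LPS array. Il1f9, which encodes the cytokine IL-36 gamma, rose at least 49.2-fold. Cp, the copper-carrying ferroxidase ceruloplasmin, gave 16.8, 14.9 and 15.7 in the vehicle arrays and 937, 1488 and 820.5 in the LPS arrays and rose by 6.05 ± 0.26 (adjusted p = 7.82e-11). The acute-phase gene Saa3 gave 124, 64.2 and 136 in the vehicle arrays and 9420.4, 9420.4 and 9420.4 in the LPS arrays and rose by 6.52 ± 0.32. It was the brightest probe set of each LPS array, and quantile normalization gives the brightest probe set of every array the same value, so its spread in this group is not measured.

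The 25 largest falls held cell division genes among others. Ncapg2, a subunit of the condensin complex that compacts chromosomes, gave 257, 345 and 249 in the vehicle arrays and 14.4, 18.9 and 4.41 in the LPS arrays and fell by 4.72 ± 0.39 (adjusted p = 9.54e-08). Smyd3, a lysine methyltransferase, fell at least 4.24-fold. Enc1, an actin-associated protein, gave 897, 816 and 834 in the vehicle arrays and 47.8, 53.6 and 35.3 in the LPS arrays and fell by 4.24 ± 0.39. Rgs2, which shortens signals from G protein-coupled receptors, gave 3189.5, 3366 and 3646 in the vehicle arrays and 211, 227 and 196 in the LPS arrays and fell by 4.01 ± 0.24. Cd28, a co-stimulatory receptor best known in T cells, gave 584, 657 and 675 in the vehicle arrays and 57.4, 36.6 and 31.6 in the LPS arrays and fell by 3.98 ± 0.24. The 25 largest rises and falls were taken only from called genes whose LPS and vehicle arrays did not overlap, so separation of the groups was part of the choice. For Enc1, Rgs2 and Cd28 the LPS arrays remained above the nonspecific level. Bcar3 (-4.15), Ckap2 (-3.95) and Slc46a3 (-3.89) were also among the 25, as was 6330509M05Rik (-5.75).

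The genes of LPS sensing moved in different directions. Tlr4, the signalling receptor, gave 553, 500.3 and 575 in the vehicle arrays and 195, 338 and 239 in the LPS arrays and fell by 1.11 ± 0.16 (adjusted p = 4.45e-05). All 3 LPS arrays were lower than all vehicle arrays. Its partner Ly96 gave 284, 273 and 259.8 in the vehicle arrays and 281, 281 and 204 in the LPS arrays, which overlapped (difference -0.11 ± 0.15, adjusted p = 0.662), and it passed as lower with the deposited values (-0.78) and equal hybridisation controls (-0.77). The co-receptor Cd14 differed by 0.80 ± 0.12 under the main scaling, but by 0.62 with equal hybridisation controls, where the call ended. Myd88 rose by 1.20 ± 0.12, while Ticam1, at 0.90 ± 0.13, lost its call with the deposited values (0.15). Irak3, the kinase-dead IRAK that dampens the MyD88 arm, gave 158, 150.5 and 161 in the vehicle arrays and 1081, 1390.4 and 1414 in the LPS arrays and rose by 3.04 ± 0.19 (adjusted p = 4.76e-09). Sigirr, a receptor-like inhibitor of TLR and IL-1 signalling, gave 61.4, 68.1 and 52.7 in the vehicle arrays and 28.5, 6.42 and 10.1 in the LPS arrays and fell by 2.30 ± 0.37. Ikbke, a kinase that activates IRF3, rose by 1.67 ± 0.10. Of the 20 sensing genes measured, 10 were higher and 4 lower, of which 3 and 4 held under all scalings, and the list's median of 0.36 turned to -0.30 with the deposited values and -0.29 with equal hybridisation controls.

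Sensors for other microbial products changed too. Of 18 Toll-like, NOD-like and nucleic acid sensors, 11 were higher and 3 lower (7 and 2 under all scalings). Tlr1, which pairs with TLR2 to bind bacterial lipoproteins, rose by 2.83 ± 0.14. The RNA sensors Ifih1 (3.5) and Dhx58 (3.48) rose, as did Zbp1 (4.42), a sensor of Z-form nucleic acid that can start necroptosis. Sting1, the adaptor for cytosolic DNA, gave 359, 324 and 288 in the vehicle arrays and 214, 82.2 and 67.1 in the LPS arrays and fell by 1.61 ± 0.29 (adjusted p = 0.000352).

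Genes of the NF-kB system itself rose, IkB proteins among them. NF-kB dimers of REL proteins are held in the cytoplasm by IkB proteins, and both sets of genes are classical NF-kB targets. Nfkbie, which encodes IkB epsilon, gave 104, 121 and 124 in the vehicle arrays and 886, 937 and 1130.3 in the LPS arrays and rose by 3.08 ± 0.18 (adjusted p = 1.41e-09). The LPS arrays lay far above the vehicle arrays. Nfkb2, the subunit of the non-canonical arm, gave 161, 154 and 169.9 in the vehicle arrays and 846, 1301 and 1859 in the LPS arrays and rose by 2.97 ± 0.20. Bcl3 (2.54), Nfkbia (1.80) and Nfkbiz (1.53), which encode nuclear and cytoplasmic IkB proteins, rose as well. Of 14 subunits, IkB proteins and kinases 12 were higher and 1 lower, but only 5 of the rises held under all scalings (median 1.16, and 0.50 with the deposited values).

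The promoters of these genes can be read in RefSeq (GRCm38.p6), whose table matched 13605 of the 17097 genes. Many genes have several listed starts, each with its own promoter. In the 250 bases before the start, a kappa B motif, the binding sequence of NF-kB, stood on either strand in 3.9% of all 32851 promoters and in 4.47% of those of tested genes. It stood in 9.76% of the 369 promoters of genes that rose at least 4-fold, in 4.61% of the 304 promoters of genes that fell at least 4-fold, and in 7 of the 17 promoters of the NF-kB list (41.2%). A match is a description of the letters and no evidence of binding. Of the 25 largest rises, 19 had a promoter in the table and 2 of these, Il6 and Oasl1, held the motif. They are printed with Nfkbie, which was chosen after its values were seen, 5′ to 3′ on the gene's strand and ending at the base before the start, with the match in capitals. The Il6 promoter is at chr5:30012864-30013113 (plus strand), that of Oasl1 at chr5:114922990-114923239 (plus strand) and that of Nfkbie at chr17:45555450-45555699 (plus strand).
Il6: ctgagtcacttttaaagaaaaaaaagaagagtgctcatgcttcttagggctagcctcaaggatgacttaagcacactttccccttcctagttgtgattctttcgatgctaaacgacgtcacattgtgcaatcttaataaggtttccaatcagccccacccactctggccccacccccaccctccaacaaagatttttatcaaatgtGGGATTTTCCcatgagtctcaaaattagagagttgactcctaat
Oasl1: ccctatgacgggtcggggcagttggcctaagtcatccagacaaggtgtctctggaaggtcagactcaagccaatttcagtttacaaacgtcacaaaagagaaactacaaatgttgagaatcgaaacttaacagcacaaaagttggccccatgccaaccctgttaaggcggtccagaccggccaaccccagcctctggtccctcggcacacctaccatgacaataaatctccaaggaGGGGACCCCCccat
Nfkbie: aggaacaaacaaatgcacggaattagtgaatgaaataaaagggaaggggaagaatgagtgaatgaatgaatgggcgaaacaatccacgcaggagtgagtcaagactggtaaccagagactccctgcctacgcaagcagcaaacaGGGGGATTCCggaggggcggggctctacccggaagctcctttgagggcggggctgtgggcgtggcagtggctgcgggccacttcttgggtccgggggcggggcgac
In Il6 the match began 44 bases before the start, in Oasl1 14 and in Nfkbie 106. Il6 itself gave 5.39, 5.33 and 3.89 in the vehicle arrays and 838, 289 and 1472 in the LPS arrays, and Oasl1, an interferon-induced inhibitor of IRF7 translation, gave 32.5, 28.0 and 17.3 in the vehicle arrays and 3172, 1293 and 1218 in the LPS arrays. The 2 genes thus started from different levels, Il6 under the nonspecific level in every vehicle array and Oasl1 over it in every vehicle array.

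Brakes on inflammatory signalling were among the strong rises. Socs1, which blocks the JAK kinases of interferon receptors, gave 10.5, 17.9 and 9.22 in the vehicle arrays and 243, 161 and 278 in the LPS arrays and rose by 4.20 ± 0.45 (adjusted p = 1.96e-06). Socs3 gave 23.2, 17.3 and 26.9 in the vehicle arrays and 2524, 2402 and 2444 in the LPS arrays and rose by 6.80 ± 0.22. Traf1 (6.57) and Il1rn (5.81), the natural antagonist of the IL-1 receptor, rose too, and Tnfaip3 (2.75), the ubiquitin-editing enzyme A20, rose as well. The list also held Gpr84 (5.30), a receptor for medium-chain fatty acids that rose but is not itself a brake. Not every brake followed. Zfp36l1, which binds AU-rich mRNAs and speeds their decay, gave 2058, 1971 and 2362 in the vehicle arrays and 159.5, 232 and 123 in the LPS arrays and fell by 3.68 ± 0.32 (adjusted p = 1.82e-07). Its relative Zfp36l2 fell by 2.94 ± 0.25, and the deubiquitinases Otud7b (-1.35) and Cyld (-1.0) fell. Among other regulators of mRNA decay, the RNase genes Zc3h12a (2.53), Zc3h12c (2.41) and Zc3h12d (1.99) rose, N4bp1 (2.10) rose, and Rc3h1 (-0.94) fell. Of the 26 genes in the list of brakes, Gpr84 included, 15 were higher and 4 lower (12 and 4 under all scalings, median 1.23). Of 18 RNA-binding regulators 9 were higher and 5 lower (4 and 5).

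**Figure D2:**
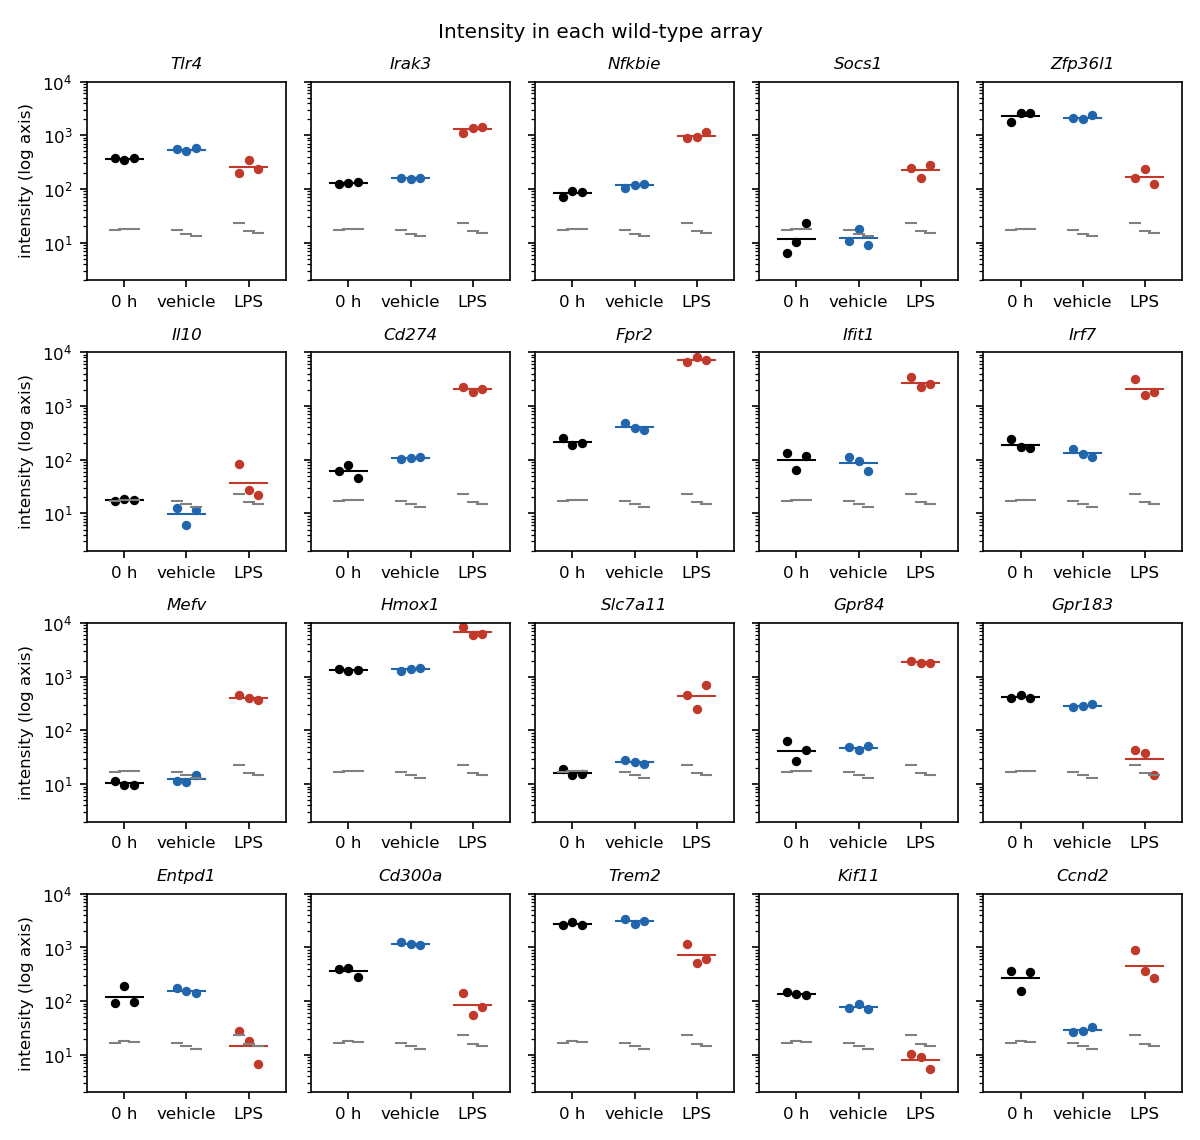
Intensity (log axis) of 20 genes in each WT array at 0 h, after vehicle and after LPS; points are arrays 1 to 3, horizontal lines are group means of the log2 values and grey dashes mark the nonspecific level of the array. LPS points stand clear of the vehicle points in every panel, below them for Tlr4, Zfp36l1, Gpr183, Entpd1, Cd300a, Trem2 and Kif11.

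Inducible transcription factors changed in both directions. Of 22 AP-1, ATF and C/EBP factors 9 were higher and 4 lower (5 and 3 under all scalings), 59.1% in all against 32.3% of all genes. Of 22 immediate early and growth factor-driven factors 5 were higher and 4 lower (2 and 4), 40.9% in all and thus closer to the share of all genes. Maff, a small MAF protein, rose at least 8.39-fold, and Batf (2.96), Batf2 (2.82) and Fosl2 (1.83) rose among AP-1 factors. Cebpb (1.34), the C/EBP factor of acute-phase genes, rose while Cebpa (-2.6) fell. Egr1, an immediate early gene that is on within the first hour of stimulation, gave 106, 206 and 161 in the vehicle arrays and 77.2, 47.4 and 56.4 in the LPS arrays and fell by 1.36 ± 0.36. Klf4 (at least 4.35-fold) and Klf2 (-1.65), Kruppel-like factors of resting macrophages, fell. Klf3 itself, the gene knocked out in the KO cells, gave 546, 316 and 503 in the vehicle arrays and 704, 457 and 538 in the LPS arrays (difference 0.33 ± 0.29, adjusted p = 0.447), and Myc gave 77.2, 55.2 and 68.3 in the vehicle arrays and 87.9, 108 and 99.4 in the LPS arrays (difference 0.56 ± 0.29, adjusted p = 0.168), a difference that passed when the 6 arrays alone were fitted.

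Some interferon-linked factors rose. Irf7, the amplifier of interferon production, gave 161, 128 and 111 in the vehicle arrays and 3113, 1589 and 1854 in the LPS arrays and rose by 3.99 ± 0.28 (adjusted p = 1.9e-08). Its lowest LPS array stood far above its highest vehicle array. Jak2 (2.99), Stat2 (2.48) and Irf1 (1.76) rose. Irf3, which is activated by phosphorylation, gave 339.6, 386 and 368 in the vehicle arrays and 245, 378 and 385 in the LPS arrays and overlapped (difference -0.15 ± 0.17, adjusted p = 0.577), although it passed as lower with the deposited values (-0.78) and equal hybridisation controls (-0.77). Of 18 IRF, STAT and JAK genes 10 were higher and 3 lower (4 and 2 under all scalings), with a median of 0.50 that was -0.034 with the deposited values.

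Among factors that shape macrophage identity more fell than rose. Of 21 measured, 5 were higher and 9 lower, and 1 and 9 held under all scalings. Pparg, the lipid-sensing nuclear receptor, gave 84.0, 91.9 and 89.9 in the vehicle arrays and 38.9, 16.7 and 12.3 in the LPS arrays and fell by 2.15 ± 0.32. Rxra (-1.87), its partner, Mef2a (-1.57), Mef2c (-1.47) and Maf (-1.32) fell. Nr1h3, which encodes the oxysterol receptor LXR alpha, was the exception under every scaling, at 27.6, 17.2 and 15.9 in the vehicle arrays and 133, 106 and 25.7 in the LPS arrays, and rose by 1.86 ± 0.46 (adjusted p = 0.00449), with LPS array 3 inside the vehicle range and no call when the 6 arrays alone were fitted.

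The interferon genes themselves read low at this time. Ifnb1 gave 8.38, 7.56 and 6.97 in the vehicle arrays and 7.10, 14.3 and 9.30 in the LPS arrays, under the nonspecific level in every array, and the difference was 0.37 ± 0.29 (adjusted p = 0.393). Of 12 interferon and receptor genes 6 lay under that level in all 6 arrays. No interferon gene passed the test.

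Cytokine genes rose widely. Tnf gave 78.0, 75.3 and 84.1 in the vehicle arrays and 1742, 778 and 1620.1 in the LPS arrays and rose by 4.04 ± 0.32 (adjusted p = 6.03e-08). Il10, the main anti-inflammatory cytokine, gave 12.4, 6.13 and 11.4 in the vehicle arrays and 81.9, 27.3 and 22.3 in the LPS arrays and rose at least 2.48-fold, with LPS array 1 far above LPS arrays 2 and 3. The IL-18 precursor gene Il18 gave 142, 126 and 136 in the vehicle arrays and 1075, 826 and 1347 in the LPS arrays and rose by 2.98 ± 0.16. Chosen after their values were seen, Edn1, the vasoconstrictor endothelin 1, rose at least 7.43-fold, Tnfsf9, the ligand of 4-1BB, rose by 3.36 ± 0.55, and Tnfsf10, the death ligand TRAIL, rose by 2.72 ± 0.51. Of 24 cytokines 16 were higher and 1 lower (14 and 0 under all scalings), and without LPS array 1 the count of lower genes was 2. The median was 1.62, and 1.32 with every value raised to the level of its array, against 0.26 for all genes treated that way.

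Cytokine receptors went both ways. Il13ra1 (2.64) and Il15ra (2.52) rose, and Il21r (1.70) and Tnfrsf1b (1.40) rose, the last being the TNF receptor that carries no death domain. Tgfbr1, the signalling receptor of TGF-beta, gave 1818, 1844 and 2038 in the vehicle arrays and 524, 457 and 505 in the LPS arrays and fell by 1.94 ± 0.15 (adjusted p = 5.31e-08). The LPS arrays lay close together and far below the vehicle arrays. Il6ra (-0.95), the binding chain of the IL-6 receptor, fell.

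Chemokine genes rose widely. Of 17 CC and CX3C chemokines 11 were higher and 0 lower (10 under all scalings), and 3 lay under the nonspecific level throughout. Ccl12, a mouse monocyte attractant, gave 22.3, 27.5 and 18.4 in the vehicle arrays and 988, 382 and 407 in the LPS arrays and rose by 4.58 ± 0.43, and Ccl8 rose by 3.63 ± 0.43. The neutrophil attractant Cxcl2 gave 251, 222 and 529 in the vehicle arrays and 3543, 3182 and 5522 in the LPS arrays and rose by 3.68 ± 0.31, and the T cell attractant Cxcl9 gave 5.75, 8.89 and 4.05 in the vehicle arrays and 957, 151 and 145 in the LPS arrays and rose at least 18.6-fold. Cxcl14 went the other way, with 312, 418 and 314 in the vehicle arrays and 182, 132 and 117 in the LPS arrays, and fell by 1.29 ± 0.32. Among 13 receptors for attractants Fpr2, which binds formyl peptides and serum amyloid A, gave 474, 391 and 355 in the vehicle arrays and 6451, 8174 and 7056 in the LPS arrays and rose by 4.16 ± 0.15 (adjusted p = 1.46e-11), and Cmklr1 (2.04) and Ccrl2 (1.81) rose. Cx3cr1, the fractalkine receptor, gave 538, 745 and 643 in the vehicle arrays and 341, 503 and 507 in the LPS arrays and was not past the threshold (difference -0.52 ± 0.44, adjusted p = 0.428), but passed as lower with the deposited values (-1.06) and equal hybridisation controls (-1.05).

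The antiviral genes that interferon induces rose almost throughout. Of 39 measured, 37 were higher and 0 lower, 34 of them under all scalings, with a median of 2.23 (log2) and 1.87 to 2.25 under the other scalings. Ifit1, which binds foreign RNA caps, gave 112, 93.3 and 61.7 in the vehicle arrays and 3498, 2207 and 2604 in the LPS arrays. Slfn4, a schlafen protein of myeloid cells, gave 19.8, 12.2 and 15.8 in the vehicle arrays and 1585, 1044 and 1640.2 in the LPS arrays and rose by 6.48 ± 0.35. Mx1 (5.59) and Isg20 (5.40) rose along with it. The guanylate-binding proteins and immunity-related GTPases, which attack the vacuoles of intracellular pathogens, rose in 9 of 11 cases (median 4.35), and without LPS array 1 in 10 cases with a median of 3.41. Gbp10 rose at least 28.8-fold, Gbp7 by 4.48 ± 0.25, Tgtp1 by 4.88 ± 0.52 and Iigp1 by 4.35 ± 0.57.

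The interferon-stimulated response element, a promoter sequence of many interferon-induced genes, was searched as GAAA, any 2 bases and GAAA on both strands of the same 250 bases, and it stood in 2.98% of all promoters, 2.56% of those of tested genes, 10.3% of those of genes that rose at least 4-fold, 0.987% of those of genes that fell at least 4-fold and 10 of 39 (25.6%) of those of the antiviral list. Saa3 and Gbp3 held it among the 25 largest rises. They are printed with Ifit1, chosen after its values were seen, with matches in capitals. The Saa3 promoter is at chr7:46715677-46715926 (minus strand), that of Gbp3 at chr3:142559794-142560043 (plus strand) and that of Ifit1 at chr19:34640639-34640888 (plus strand).
Saa3: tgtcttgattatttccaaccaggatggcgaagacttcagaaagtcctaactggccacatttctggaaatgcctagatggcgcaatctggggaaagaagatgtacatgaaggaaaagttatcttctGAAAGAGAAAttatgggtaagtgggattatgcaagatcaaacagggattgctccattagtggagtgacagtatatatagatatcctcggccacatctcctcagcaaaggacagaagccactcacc
Gbp3: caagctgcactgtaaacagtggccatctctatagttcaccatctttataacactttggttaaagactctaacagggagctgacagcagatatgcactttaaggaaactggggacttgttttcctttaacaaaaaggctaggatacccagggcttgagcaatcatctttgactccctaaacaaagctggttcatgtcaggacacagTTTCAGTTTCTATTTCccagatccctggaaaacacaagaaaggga
Ifit1: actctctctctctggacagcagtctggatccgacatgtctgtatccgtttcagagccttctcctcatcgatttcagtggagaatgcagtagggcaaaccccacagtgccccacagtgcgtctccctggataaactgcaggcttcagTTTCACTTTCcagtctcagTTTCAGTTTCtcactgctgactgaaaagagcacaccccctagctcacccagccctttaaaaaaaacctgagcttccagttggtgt
Saa3 held 1 match, and Gbp3 and Ifit1 held 2 each, those of Gbp3 overlapping. Gbp3 gave 42.9, 32.2 and 35.1 in the vehicle arrays and 3848, 1729.8 and 3674 in the LPS arrays.

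Antimicrobial and acute-phase genes rose in part. Of 19 measured, 10 were higher and 1 lower (9 and 1 under all scalings), and the 1 that was lower lost its call without LPS array 1. Hp, the hemoglobin scavenger haptoglobin, gave 35.7, 44.1 and 47.1 in the vehicle arrays and 2635, 4365 and 4145 in the LPS arrays and rose by 6.43 ± 0.23. Chil1, a chitinase-like protein, rose at least 25.1-fold and Wfdc21 at least 18.5-fold. S100a8, which encodes a chain of the metal-binding protein calprotectin, gave 35, 46.3 and 23.5 in the vehicle arrays and 332, 588 and 429 in the LPS arrays and rose by 3.70 ± 0.31 (adjusted p = 1.14e-07). Its usual partner S100a9 gave 9.18, 9.89 and 5.58 in the vehicle arrays and 6.22, 11 and 7.19 in the LPS arrays, which overlapped and lay under the nonspecific level (adjusted p = 0.979). Among 18 complement genes Cfb (at least 94.1-fold) and C1rb (1.45) rose, and C1qc, part of the recognition molecule C1q, gave 1752, 1591 and 1592 in the vehicle arrays and 1155, 746 and 429 in the LPS arrays and fell by 1.19 ± 0.27. Without LPS array 1 the count of lower complement genes was 4 instead of 2.

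Inflammasome genes rose. Of 12 measured, 9 were higher and 1 lower (6 and 1 under all scalings). Mefv, which encodes the sensor pyrin, gave 11.5, 11.1 and 14.8 in the vehicle arrays and 462, 402 and 367 in the LPS arrays and rose by 5.05 ± 0.23 (adjusted p = 1.41e-10). Casp4, the mouse caspase-11 that binds LPS in the cytosol, gave 259.8, 222 and 268 in the vehicle arrays and 2199, 1226 and 1189 in the LPS arrays and rose by 2.57 ± 0.19. Nlrp3 (2.01) and Casp1 (1.60) rose, and Nek7, a kinase that NLRP3 requires, fell by 0.64 ± 0.10.

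The genes of arachidonic acid metabolism changed in both directions, and its branches were not compared by a test. Among prostaglandin E2 genes, Ptges (6.40), the inducible synthase, and Pla2g4a (2.78), which frees arachidonic acid from membranes, rose, as did the exporter Abcc4 (1.5). Several leukotriene genes fell. Alox5, the 5-lipoxygenase, gave 153, 156 and 129 in the vehicle arrays and 71.8, 29.0 and 27.2 in the LPS arrays and fell by 1.92 ± 0.30 (adjusted p = 0.000104). Lta4h gave 659, 647 and 564 in the vehicle arrays and 159.9, 233 and 178 in the LPS arrays and fell by 1.73 ± 0.15, and Ltc4s gave 493, 430.2 and 472 in the vehicle arrays and 199, 145 and 57.0 in the LPS arrays and fell by 1.97 ± 0.32. Hpgds, which makes prostaglandin D2, fell by 2.71 ± 0.57, and Ptger2, a receptor for prostaglandin E2, fell by 2.09 ± 0.26. In all, 8 of 21 were higher and 9 lower (4 and 9 under all scalings).

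Of 17 genes of nitric oxide, arginine, polyamine and itaconate metabolism 7 were higher and 1 lower, all of these under all scalings. Nos2, the inducible nitric oxide synthase, gave 10.4, 8.84 and 13.5 in the vehicle arrays and 277, 79.1 and 145 in the LPS arrays and rose by 3.77 ± 0.31 (adjusted p = 9.25e-08). Arg1, which splits arginine to ornithine and is used as a marker of alternative activation, gave 5.60, 7.29 and 8.06 in the vehicle arrays and 26.8, 321 and 203 in the LPS arrays and rose at least 8.13-fold (adjusted p = 7.6e-05). LPS array 1 was far below the other LPS arrays, and without it the bound was at least 17.2-fold. The arginine importers Slc7a2 (2.33) and Slc7a1 (1.52) rose, and Sat1, which acetylates polyamines for export, gave 3941, 4018 and 3810.0 in the vehicle arrays and 1502, 694 and 898 in the LPS arrays and fell by 2.00 ± 0.21. Acod1 gave 519, 291 and 394 in the vehicle arrays and 8001, 7056 and 7193 in the LPS arrays, already above background after vehicle.

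Redox and metal genes changed in both directions. Of 15 targets of NRF2, the factor of the antioxidant response, 8 were higher and 3 lower (6 and 1 under all scalings, median 0.86, and 0.16 with the deposited values). Of 15 superoxide genes 7 and 4 passed as higher and lower (3 and 3), and of 18 iron and metal genes 7 and 3 (3 and 2). Sod2, the mitochondrial superoxide dismutase, rose by 2.78 ± 0.12, while Gpx3 (-1.33) and Gpx4 (-1.09) fell. Hmox1, the haem-degrading enzyme, gave 1259.7, 1420.5 and 1466 in the vehicle arrays and 8304, 6048 and 6262 in the LPS arrays and rose by 2.30 ± 0.22 (adjusted p = 5.27e-07). Slc7a11, the cystine importer, gave 28.1, 26.0 and 23.5 in the vehicle arrays and 458, 253 and 698 in the LPS arrays and rose by 4.07 ± 0.26, and Gsr (1.87) and Srxn1 (1.74) rose. Slc40a1, the iron exporter ferroportin, gave 1895, 2138 and 2162 in the vehicle arrays and 834, 258 and 201 in the LPS arrays and fell by 2.55 ± 0.39 (adjusted p = 7.68e-05), Slc39a14, an importer of zinc and iron, gave 64.9, 61.1 and 61.5 in the vehicle arrays and 665, 634 and 533 in the LPS arrays and rose by 3.28 ± 0.28, and Slc31a2 rose by 2.32 ± 0.14. Among NAD-linked genes Sirt3 (-1.82), a deacetylase of mitochondria, fell.

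Many glycolysis genes were higher and many genes of the TCA cycle lower, most by small amounts. Of 25 glycolysis genes 19 were higher and 2 lower, but only 8 rises held under all scalings (median 0.85, and 0.50 with the deposited values). Slc2a6, a transporter of the glucose transporter family, gave 173, 195 and 170.1 in the vehicle arrays and 2721, 2147 and 2026 in the LPS arrays and rose by 3.67 ± 0.19, and Slc16a3 (3.47), the lactate exporter, rose. Hif1a differed by 0.85 ± 0.12, a call that ended with equal hybridisation controls (0.64), and Slc2a3 fell by 1.37 ± 0.15. Of 26 TCA cycle genes 2 were higher and 11 lower (0 and 10 under all scalings). Idh1, the cytosolic isocitrate dehydrogenase, gave 3238, 3335 and 3324 in the vehicle arrays and 739, 1513 and 1654 in the LPS arrays and fell by 1.43 ± 0.21, and Mdh1 (-0.91), Idh3g (-0.89) and Suclg2 (-0.86) fell.

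Lipid genes fell in several pathways. Of 18 cholesterol synthesis genes 14 fell under all scalings and 0 rose (median -1.14). Fdps, which makes the isoprenoid precursor of sterols, gave 315, 276 and 298 in the vehicle arrays and 145, 65.1 and 62.0 in the LPS arrays and fell by 1.82 ± 0.32. Of 17 genes of fatty acid synthesis and desaturation 3 were higher and 5 lower (0 and 4 under all scalings). Fads1 gave 849, 791 and 869.9 in the vehicle arrays and 108, 169.7 and 175 in the LPS arrays and fell by 2.50 ± 0.19, and Acsl3 (-2.35) fell. In oxidation 8 of 16 genes fell and 0 rose (1 without LPS array 1), with Abcd2 (at least 11.7-fold), Acox3 (-2.24) and Acadm (-1.30) lower. Genes of cholesterol efflux fell in 7 of 14 cases. Apoe gave 6896, 6721 and 6921 in the vehicle arrays and 2652, 1189.5 and 1445 in the LPS arrays and fell by 2.05 ± 0.28 (adjusted p = 2.15e-05), Apoc2 (-3.07) and Cyp27a1 (-3.90) fell, and the 2 that rose were Nr1h3 and Ch25h, the enzyme of 25-hydroxycholesterol, at 47.1, 53.0 and 51.9 in the vehicle arrays and 1196, 489.7 and 1107 in the LPS arrays. Sphingolipid and phospholipid genes went both ways, with 5 of 22 higher and 7 lower (2 and 6 under all scalings). Among them Pcyt1a, the rate-limiting enzyme of phosphatidylcholine synthesis, fell by 3.10 ± 0.37.

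Class I presentation genes were mostly higher, and class II genes went both ways. Of 17 class I and immunoproteasome genes 12 were higher and 1 lower (6 and 1 under all scalings). Psmb9, an inducible catalytic subunit, rose by 1.60 ± 0.14 and the activator Nlrc5 by 1.96 ± 0.24. Of 15 class II genes 4 and 3 passed, and the median of 0.077 turned to -0.52 with the deposited values. Marchf1, which removes class II and CD86 from the surface, rose by 2.48 ± 0.12, while the endosomal processing enzymes Lgmn (-1.64) and Ifi30 (-0.96) fell. Among co-stimulatory and checkpoint genes Cd274, which encodes PD-L1, gave 102, 109 and 110.1 in the vehicle arrays and 2220.5, 1849 and 2044 in the LPS arrays and rose by 4.25 ± 0.26 (adjusted p = 3.68e-09). Slamf1 (at least 16.6-fold) and Slamf9 (3.34) rose. Cd80 gave 28.2, 24.3 and 23.2 in the vehicle arrays and 18.2, 11.8 and 9.05 in the LPS arrays and fell at least 1.42-fold, and Cd86 gave 303, 169.7 and 251 in the vehicle arrays and 861, 244 and 189.9 in the LPS arrays (difference 0.54 ± 0.43, adjusted p = 0.393). The inhibitory receptors Havcr2 (-2.64), Cd200r1 (-1.92) and Vsir (-1.73) fell.

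Surface receptors for particles and dying cells changed in both directions. Olr1 and Timd4, a scavenger receptor and a phosphatidylserine receptor, rose at least 5.32-fold and at least 6.66-fold. Trem2, a receptor for lipids and apoptotic debris, gave 3317, 2784 and 3128 in the vehicle arrays and 1141, 519 and 619.8 in the LPS arrays and fell by 2.10 ± 0.20 (adjusted p = 5.65e-07). Cd300a, an inhibitory receptor for phosphatidylserine, gave 1269, 1154 and 1105 in the vehicle arrays and 140.1, 54.3 and 79.3 in the LPS arrays and fell by 3.80 ± 0.26 (adjusted p = 1.35e-08). The vehicle and LPS arrays of both were far apart. Mertk (-0.99), Gas6 (-1.36), its bridging ligand, and Itgb5 (-2.20) fell, and of 17 genes of apoptotic cell uptake 8 were lower and 2 higher (8 and 1 under all scalings). The mannose receptor Mrc1 gave 2196, 2095 and 2175 in the vehicle arrays and 1344, 1214 and 1462 in the LPS arrays (difference -0.69 ± 0.17), a call that did not hold under every scaling, with -0.54 under equal medians. Among C-type lectins Clec4e, the Mincle receptor for mycobacterial glycolipid, rose by 2.69 ± 0.13, and Clec7a, the beta-glucan receptor Dectin-1, fell by 1.76 ± 0.25. Fc receptors for IgG divided, with Fcgr4 (119, 117 and 95.2 in the vehicle arrays and 882, 494 and 289 in the LPS arrays) and Fcgr1 rising by 2.19 ± 0.31 and by 2.95 ± 0.28 and Fcgr3 (-0.96) and Fcgrt (-1.52) falling.

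G protein-coupled receptors went both ways. Of 28 measured, 10 were higher and 12 lower (9 and 12 under all scalings). Gpr84 gave 48.4, 43.2 and 51.1 in the vehicle arrays and 1993, 1805 and 1822 in the LPS arrays, Gpr85 rose by 3.45 ± 0.19, Gpr31b by 3.19 ± 0.48 and Lpar1, a receptor for lysophosphatidic acid, by 2.89 ± 0.20. On the other side Gpr183, which follows oxysterols derived from the product of CH25H, gave 275, 283 and 306 in the vehicle arrays and 43.4, 38.2 and 14.9 in the LPS arrays and fell by 3.30 ± 0.45 (adjusted p = 2.13e-05), and Cnr2, a cannabinoid receptor, fell by 4.92 ± 0.39. Gpr160 fell at least 6.48-fold, and Lpar6 fell by 2.67 ± 0.29. The ecto-enzymes that turn extracellular ATP into adenosine fell. Entpd1, which encodes CD39, gave 179, 152 and 142 in the vehicle arrays and 27.4, 18.2 and 6.66 in the LPS arrays and fell by 3.40 ± 0.44, and Nt5e, which encodes CD73, fell at least 1.93-fold. P2ry1 (-2.03) and P2rx7 (-1.39), receptors for ADP and ATP, fell as well.

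Adhesion and intracellular signalling genes followed no single direction. Icam1 gave 322, 275 and 341 in the vehicle arrays and 2668, 2080.3 and 2999 in the LPS arrays and rose by 3.04 ± 0.16, and the fibronectin receptor chain Itga5 rose by 2.22 ± 0.36, while the laminin receptor chain Itga6 fell by 2.51 ± 0.17. Rgs1 (-3.36) and Pde3b (-3.71) fell, and Pde4b, the cyclic AMP phosphodiesterase of inflammatory cells, gave 94.4, 67.8 and 99.3 in the vehicle arrays and 455, 501 and 692 in the LPS arrays and rose by 2.65 ± 0.33. In the PI3K and M-CSF pathway Deptor (at least 11.6-fold), an inhibitor of mTOR, and Sesn1 (-3.24) fell, and Pik3r5 (1.18) and Pik3ap1 (1.10) rose.

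Proteases and their inhibitors changed on both sides. Mmp13 and Mmp9, secreted collagenase and gelatinase, rose by 4.54 ± 0.39 and by 3.63 ± 0.47, and Timp1, their inhibitor, gave 51.7, 28.3 and 32.6 in the vehicle arrays and 204, 1108 and 358 in the LPS arrays and rose by 3.58 ± 0.42. Timp2 gave 1725, 1597 and 1804 in the vehicle arrays and 541, 445 and 337 in the LPS arrays and fell by 1.98 ± 0.23, and Mmp8 fell by 2.17 ± 0.18. Serpinb2, an inhibitor of plasminogen activators, rose at least 18.1-fold. In coagulation F10, the precursor of factor Xa, rose by 3.56 ± 0.23 and the protein C receptor gene Procr by 3.09 ± 0.35, and Thbd, which encodes the anticoagulant thrombomodulin, gave 103, 107 and 131 in the vehicle arrays and 41.1, 20.2 and 15.5 in the LPS arrays and fell by 2.26 ± 0.35. In the TGF-beta family Inhba, the activin A subunit, rose at least 3.38-fold, and Id3, a target of BMP signals, gave 2035, 2092 and 2204 in the vehicle arrays and 854, 588 and 669 in the LPS arrays and fell by 1.60 ± 0.31.

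**Figure D3:**
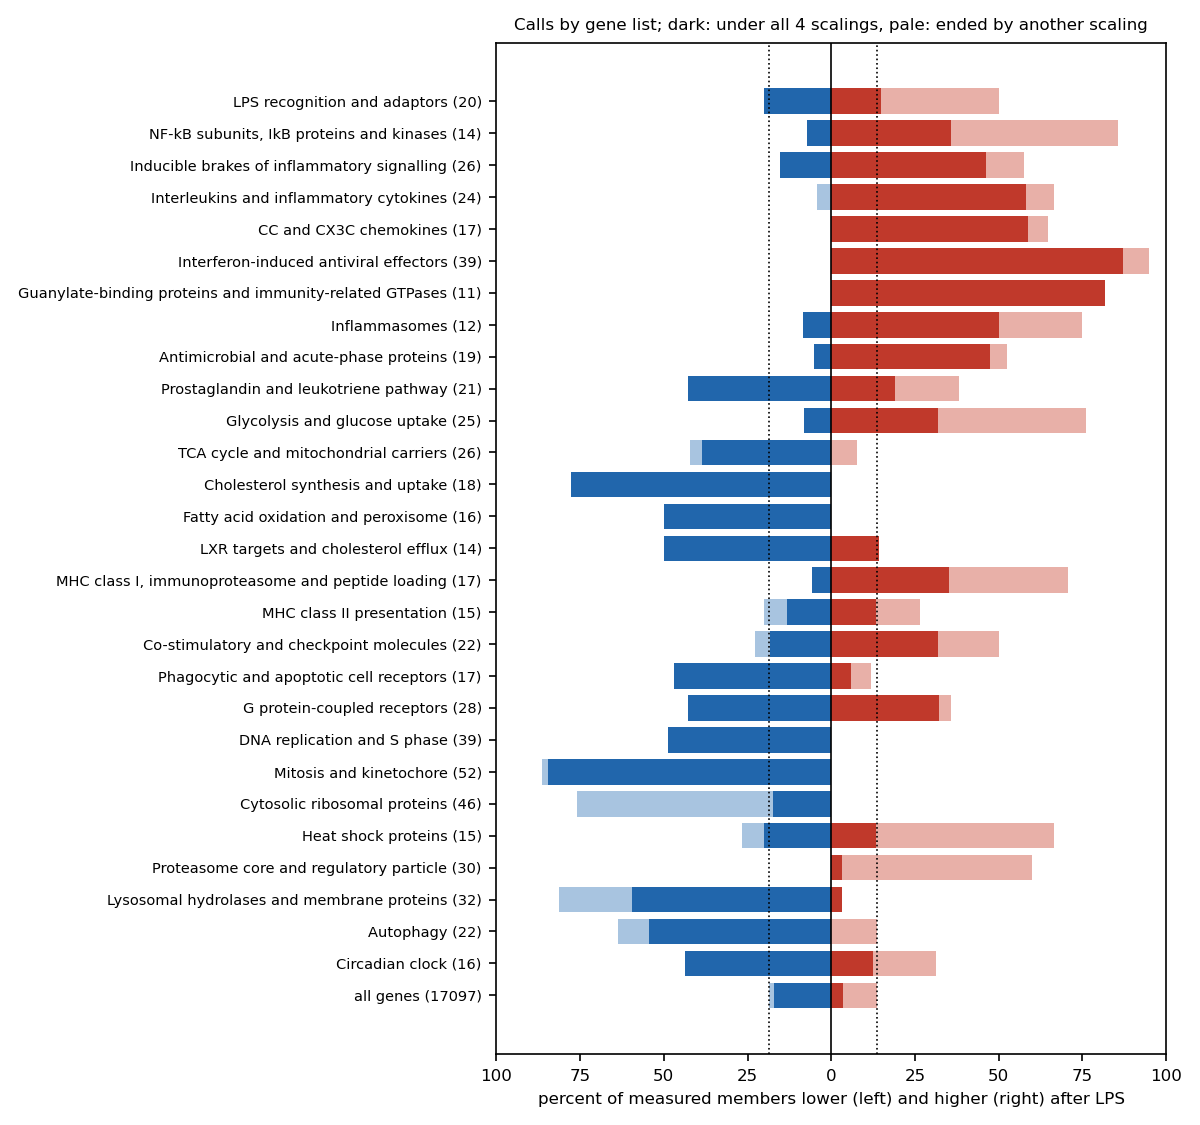
Percent of the measured members of 28 gene lists, and of all genes, that were lower (left) or higher (right) after LPS; dark bars hold under all 4 scalings and pale bars add calls of the main scaling that at least 1 other scaling ended, with member counts in parentheses. Dotted lines mark the shares over all genes, 18.6% lower and 13.7% higher. Antiviral effectors reach furthest to the right and mitosis genes furthest to the left, and the pale bars of the proteasome and ribosomal protein lists show calls that rest on the scaling.

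Genes of cell division fell in large numbers. Of 52 mitosis and kinetochore genes 45 fell and 0 rose, 44 of them under all scalings, with a median of -2.13 (log2), or -1.95 when dim values were set to the nonspecific level. Kif11, the motor that separates the spindle poles and was chosen after its values were seen, gave 73.9, 89.7 and 71.6 in the vehicle arrays and 10.2, 9.04 and 5.42 in the LPS arrays and fell at least 4.41-fold (adjusted p = 4.57e-08). Plk1, a master kinase of mitosis, gave 129.9, 164 and 96.4 in the vehicle arrays and 9.02, 4.91 and 7.79 in the LPS arrays and fell at least 7.18-fold. Aspm (-4.35), Anln (-4.05), Cenpf (-4.02) and Kif20a (-3.76) fell as well. Mki67, the gene of the Ki-67 antigen, gave 1241, 1287 and 1065 in the vehicle arrays and 831, 670.1 and 729.6 in the LPS arrays, and its difference (-0.69 ± 0.22) lost its call with equal medians (-0.68) and without LPS array 2 or 3 or vehicle array 1 or 2. Of 39 DNA replication genes 19 fell and 0 rose, with a median of -0.64, and the difference between the lists was not tested. Pole2 (at least 4.86-fold), Rrm2 (-2.65), Prim1 (-2.35), Pola1 (-1.96) and Rrm1 (-1.60) fell, while Pcna, the sliding clamp of DNA polymerases and chosen after its values were seen, gave 2793, 2857 and 2778 in the vehicle arrays and 3335, 2421 and 2497 in the LPS arrays and was not past the threshold (adjusted p = 0.868).

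The mitosis list was searched for the letters of the cell cycle genes homology region (TTTGAA, both strands of the 250 bases), a site that repressor complexes bind in resting cells. They stood in 18 of 48 promoters of that list (37.5%), 4 of 37 of the replication list (10.8%), 11.9% of those of tested genes and 16% of all promoters, but also in 11 of 39 of the antiviral list (28.2%). Ect2, which places the cleavage furrow, gave 126, 177 and 103 in the vehicle arrays and 18, 7.38 and 16.4 in the LPS arrays and fell by 3.35 ± 0.40, and its promoter (chr3:27153879-27154128, minus strand), chosen after its values were seen, is printed with the match in capitals.
Ect2: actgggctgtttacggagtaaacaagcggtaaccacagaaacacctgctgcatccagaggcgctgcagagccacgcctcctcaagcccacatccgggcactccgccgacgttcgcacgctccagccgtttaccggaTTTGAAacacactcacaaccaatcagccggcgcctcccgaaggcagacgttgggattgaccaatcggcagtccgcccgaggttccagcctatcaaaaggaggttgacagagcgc
The match began 114 bases before the start.

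Regulators of the cell's entry into division went both ways. Ccnd2, a D-type cyclin, gave 26.8, 27.3 and 32.7 in the vehicle arrays and 891, 369.8 and 271 in the LPS arrays and rose by 3.95 ± 0.46, Ccnd3 rose by 2.08 ± 0.31 and Cdkn2b, an inhibitor of the kinases that D cyclins activate, by 2.09 ± 0.41. Ccnd1 gave 70.0, 84.2 and 88.2 in the vehicle arrays and 137, 118 and 66.0 in the LPS arrays and was not past the threshold (difference 0.34 ± 0.65, adjusted p = 0.752). Ccna2, the cyclin of S and G2 phase, gave 493, 484 and 382 in the vehicle arrays and 52.7, 52.2 and 29.5 in the LPS arrays and fell by 3.38 ± 0.25, Cdkn2c (-3.16) and E2f8 (-2.04) fell, and Cdkn1a, which encodes p21, differed by 0.64 ± 0.12, with 0.50 and no call under equal hybridisation controls. Cell death genes divided likewise. Mlkl (3.17), the executor of necroptosis, and Fas (2.34) rose with Cflar (2.09), which blocks death receptor signals, and the BH3-only killers Pmaip1 (-2.67) and Bmf (-2.23) fell.

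**Figure D4:**
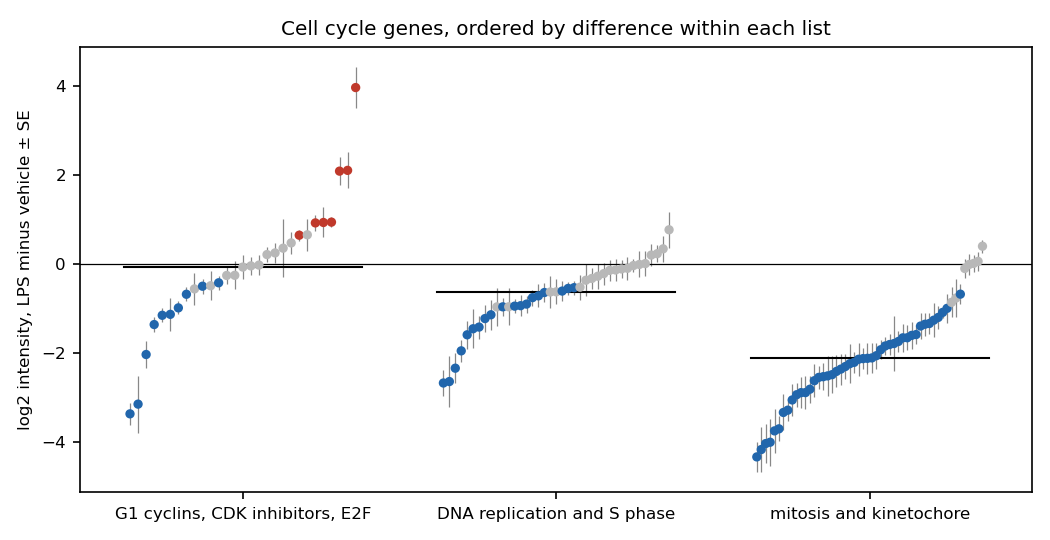
Log2 difference (LPS minus vehicle) with its SE for each measured gene of 3 cell cycle lists, ordered by size within the list; red points were called higher, blue lower and grey neither, and black lines are list medians. The mitosis list lies almost wholly below 0 (median -2.13), most of the replication list lies below 0 (median -0.64) and the G1 list spans both signs (median -0.08).

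Translation and protein turnover showed small shifts that the scaling could end. Of 46 cytosolic ribosomal protein genes 35 were lower and 0 higher (median -0.40), yet 8 held under all scalings, among them Rpl30 (-0.93) and Rpl7 (-0.91). Of 30 proteasome genes 18 were higher, and only Psma6 (1.19) held under all scalings. Without LPS array 1 the proteasome counts were 17 higher and 3 lower. Of 15 heat shock genes 10 were higher and 4 lower (2 and 3 under all scalings), and 1 of the rises was large. Hspa1b, an inducible HSP70, gave 70.4, 96.2 and 72.3 in the vehicle arrays and 1132, 696 and 767 in the LPS arrays and rose by 3.42 ± 0.22 (adjusted p = 4.9e-09), and Hsp90aa1 rose by 1.36 ± 0.18. Ribosome biogenesis depended on 1 array, with 8 of 35 genes higher with all 6 arrays in the fit and 17 higher without LPS array 1.

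Of 32 lysosomal genes 26 were lower and 1 higher (19 and 1 under all scalings; median -0.66). Sgsh, a heparan sulfate hydrolase, gave 528, 460.2 and 394 in the vehicle arrays and 45.3, 118 and 62.6 in the LPS arrays and fell by 2.72 ± 0.32 (adjusted p = 4.72e-06), Manba (-1.81), Npc1 (-1.62) and Mcoln1 (-1.43), the lysosomal calcium channel, fell, and Ctsc, which activates serine proteases, was the 1 that rose (2108, 2038 and 2046 in the vehicle arrays and 5079, 5040.3 and 4281 in the LPS arrays). Of 22 autophagy genes 14 were lower and 3 higher (12 and 0 under all scalings), with Ulk2 (-1.94), Gabarapl1 (-1.44) and Atg7 (-1.43) lower. In the proton pump of the lysosome Atp6v0d2 gave 181, 298 and 178 in the vehicle arrays and 42.2, 32.2 and 41.6 in the LPS arrays and fell by 2.47 ± 0.35.

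Further families held single genes with large changes. In the circadian clock, Dbp, an output factor, fell by 2.97 ± 0.48, Rora, an activator of Arntl, fell by 2.63 ± 0.23, Nr1d2 fell by 1.72 ± 0.16, and Per2 and Ciart, both repressors, rose by 1.69 ± 0.20 and by 1.97 ± 0.19. Among chromatin modifiers Ezh2, the methyltransferase of the Polycomb complex, gave 122, 156 and 136 in the vehicle arrays and 50.6, 32.0 and 21.5 in the LPS arrays and fell by 2.07 ± 0.36, and Sp100, a nuclear body protein, rose by 2.43 ± 0.14. Of 39 glycosyltransferases 10 were higher and 10 lower (5 and 10 under all scalings). The sialyltransferase gene St6gal1 gave 588, 506 and 517 in the vehicle arrays and 4.76, 4.48 and 11.2 in the LPS arrays and fell at least 30.3-fold, and Gcnt1 fell by 4.08 ± 0.26, while St3gal6 (2.71) and St3gal3 (1.94) rose. The semaphorin receptor gene Plxnc1 fell by 2.69 ± 0.64 and Plxnd1 fell by 1.63 ± 0.17, and Jag1, a Notch ligand, gave 64.9, 71.2 and 96.8 in the vehicle arrays and 402, 335 and 419 in the LPS arrays and rose by 2.33 ± 0.28. Amino acid transporters divided as well, with Slc15a3 (2.6) and Slc7a5 (1.69) higher and Slc38a2 (-2.19) and Slc43a2 (-1.97) lower.

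The WT arrays at 0 h, taken when the conditioned medium was removed, place these levels. Because the vehicle arrays stand in both comparisons, the values are given side by side and not correlated. Ccl7 read 644, 263 and 678 at 0 h and 6.39, 7.29 and 14.6 in the vehicle arrays and 1498, 283 and 373 in the LPS arrays, so it was near background in the vehicle arrays only. Ccl2 read 2303, 1085 and 2062 at 0 h and 83.5, 112 and 75.6 in the vehicle arrays and 2297, 717 and 1191 in the LPS arrays, and Ch25h 818, 278 and 572 at 0 h, again with the vehicle arrays lowest. Gpr84 read 64.8, 26.8 and 42.8 at 0 h and Mefv 11.7, 9.51 and 9.83, both low at 0 h and after vehicle. Apoc2, a lipoprotein gene, read 159, 174 and 89.4 at 0 h and 1099, 1073 and 1002 in the vehicle arrays and 178, 224 and 50.3 in the LPS arrays, so the vehicle arrays were its highest. Ccnd1 read 3251, 1814 and 3156 at 0 h, far above both groups at 8 h.

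For few of these genes did the same contrast in KO cells pass as different, and a gene that did not pass may still differ. An interaction test (KO response minus WT response) passed for 191 of 17097 genes (1.12%), among them 89 of the 2347 genes higher and 46 of the 3175 lower in WT cells. Of the 89, the rise was smaller in KO cells for 50 and larger for 39. The WT response both selected these genes and is subtracted in the interaction, which favours smaller KO rises. No direction is read from this split. The rise of Il18 was 2.98 in WT and 4.34 in KO cells (interaction 1.35, adjusted p = 0.00675), and that of Pfkfb3, an activator of glycolysis, 3.55 and 2.23 (interaction -1.32, adjusted p = 0.0127).

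**Figure D5:**
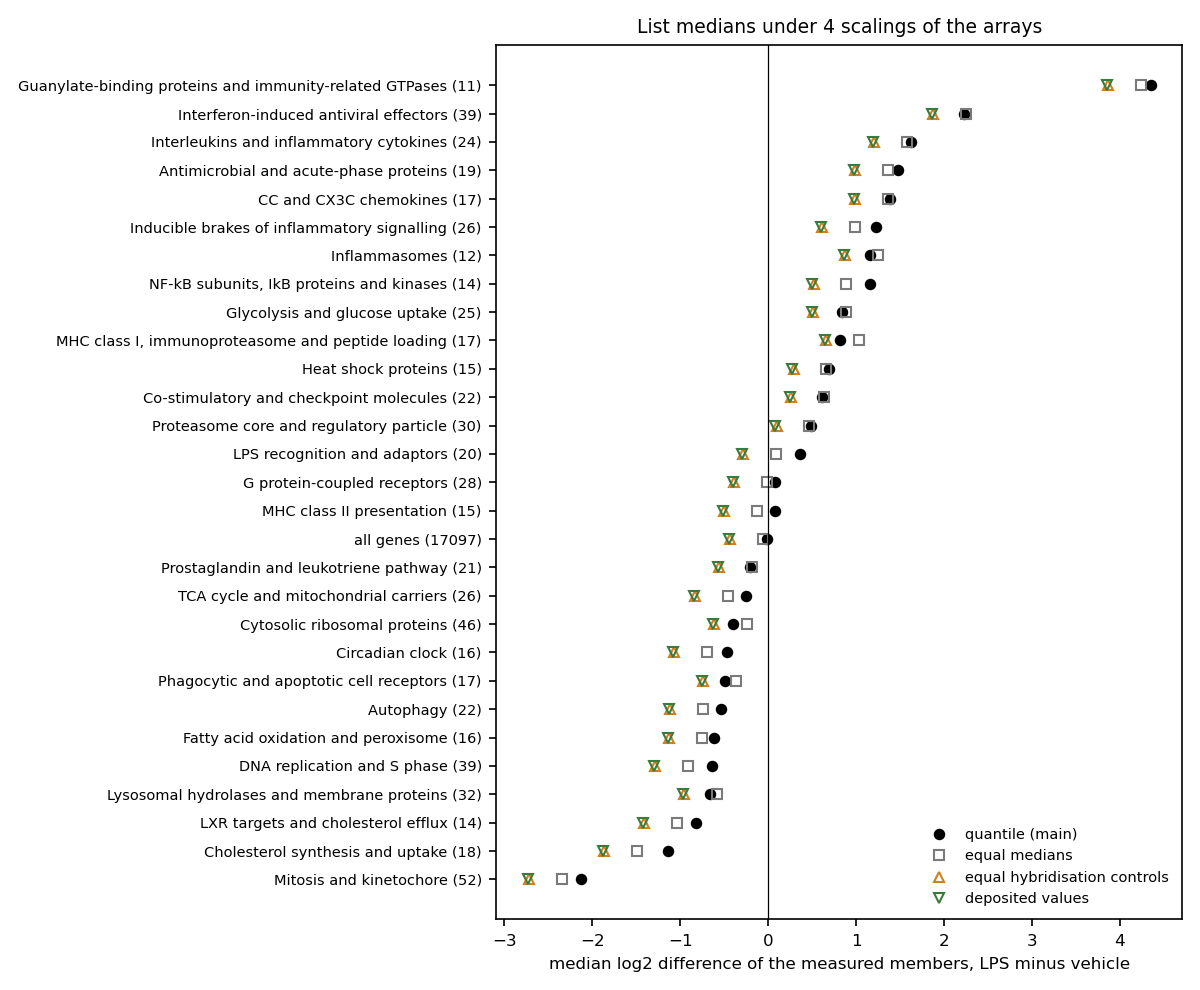
Median log2 difference (LPS minus vehicle) of the measured members of 28 gene lists and of all genes under 4 scalings of the arrays, ordered by the main scaling. Deposited values and equal hybridisation controls shift the medians to the left, so lists near 0 change sign, and the lists at either end keep theirs.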

How the data were processed

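The 18 arrays (6 groups of 3) came as a table of 45141 probe sets in linear intensity units as deposited by the authors, and the submitters' processing notes name Partek as the software. For background correction and scaling the sources used here give no detail. Intensities were taken to log2 and quantile-normalized over non-control probe sets. Of the probe sets 28898 had 1 gene symbol, 551 several and 15588 none, and each of 17097 genes was read by its brightest single-gene probe set. Groups were compared with limma 3.58.1 (R 4.3.3), with 1 mean per group over all 18 arrays and Benjamini-Hochberg adjustment over 17097 genes. Array number limits the precision. The fit was tested on simulated data.

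Named genes were drawn from the 25 largest rises and falls among called genes without overlap between LPS and vehicle arrays. Members of lists of up to 12 genes, the 5 largest rises and falls of longer lists, and a set of defining genes were named too. Others are marked where they appear. The members and lists were chosen with earlier results of these data known. Promoters and RefSeq symbols are from GRCm38.p6. Other per-sample columns numbered 0. The alternatives were other scalings, a dim filter, a floor, an offset, mean probe sets, fewer arrays, array weights, another variance model, a replicate block and leaving out each array.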

Additional observations from a re-analysis of the deposited data

Results flagged for a closer look

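Among 295 of the genes named in the text, 18 had a response to LPS that differed between KO and WT cells in the interaction test (limma, Benjamini-Hochberg adjusted p below 0.05 over 17097 genes), given as KO response minus WT response on the log2 scale. The share over all genes was 1.12%. Many of the named genes were chosen for a large WT response, which the interaction subtracts, so no direction is read from the signs. The difference was positive for Inhba (3.72), Cdkn2b (2.71), Il6 (2.69), 6330509M05Rik (2.45), Tnf (2.29), Slc7a11 (1.99), Nfkbiz (1.39), Il18 (1.35) and Cdkn1a (0.86). It was negative for Hp (-2.79), Timp1 (-2.59), Zc3h12d (-2.58), C1rb (-2.25), Wfdc21 (-2.19), Il6ra (-1.56), Pfkfb3 (-1.32), Il21r (-0.97) and Marchf1 (-0.97). For Tnf the rise was 4.04 in WT and 6.33 in KO cells, and for Hp 6.43 and 3.64.

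Probe sets with no listed gene were not part of the gene comparison. Of 15588 such probe sets 2924 passed (18.8%), with 1647 higher and 1277 lower. In the same fit 11337 of all 45037 non-control probe sets passed (25.2%). The 2 largest rises were 7.54 and 7.52, and the 2 largest falls were -6.37 and -6.22 on the log2 scale.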

How the results depend on the processing

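The counts of higher and lower genes were 2347 and 3175. With the deposited values they were 743 and 6702, with equal hybridisation controls 631 and 4881, and with equal medians 1581 and 3866. Leaving out 1 array in turn gave 1964 to 2496 higher and 2722 to 3234 lower genes. Replicate numbers did not pair the samples by the deviations of same-numbered vehicle and LPS arrays (r = 0.126, 0.0403 and 0.0548 across genes), and a fit with the replicate number as a block on the 6 arrays gave 1525 higher and 2146 lower genes. Filtering dim genes, raising dim values to the nonspecific level, an offset of 16, the mean of a gene's probe sets, the 6 arrays alone, array weights and a trended robust variance gave 1738 to 2436 and 2329 to 3360. LPS array 1 had a weight of 0.259. A refit of each gene list without it was added after the data were seen. Of 282 called genes named in the text, Cd68 not among them, 274 passed in the same direction under all 17 alternatives and 0 reversed under any. Another scaling ended the call of 6 of the 282, leaving out 1 array that of 2 and the other settings that of 1. The call of Cd68, outside this count, also did not hold under every scaling. Of the 83 list medians, those of all genes included, the deposited values moved 77 by more than the spread between arrays, equal medians 34 and leaving out LPS array 1 moved 15. Leaving out 1 array moved the value of 39 of the named genes by over 1.5 times, given here without that array as a log2 difference or a bound. Without LPS array 1 they were Acsl3 (-1.72), Arg1 (at least 17.2-fold), Ccl7 (5.21), Cdkn2b (1.40), Cenpf (-3.42), Cxcl9 (at least 9.98-fold), Edn1 (at least 4.40-fold), Gpr31b (2.49), Havcr2 (-3.25), Hpgds (-3.42), Iigp1 (3.41), Mmp9 (4.28), Olr1 (at least 8.36-fold), Pcyt1a (-3.73), Pmaip1 (-3.37), Rgs1 (-3.96), Serpinb2 (at least 27.7-fold), Sigirr (-2.91), Slamf9 (2.73), Slc40a1 (-3.18), Tgtp1 (4.22), Timd4 (at least 3.95-fold) and Tnfsf10 (1.88). Without LPS array 2 they were Arg1 (at least 4.98-fold), Bcar3 (-5.00), Ckap2 (-4.59), Cnr2 (-5.61), Havcr2 (-1.95), Iigp1 (5.08), Il6 (at least 74.9-fold), Inhba (at least 5.19-fold), Kif20a (-4.62), Timp1 (2.90) and Tnfsf10 (3.35). Without LPS array 3 they were Apoc2 (-2.40), Bcar3 (-3.5), Ccl8 (4.31), Cd200r1 (-1.30), Cdkn2c (-2.25), Ncapg2 (-4.09), Nr1h3 (2.6), Olr1 (at least 3.40-fold), Plxnc1 (-1.71), Pmaip1 (-1.86), Slc46a3 (-3.17) and Timd4 (at least 15.6-fold). Without vehicle array 1 it was Tnfsf9 (2.66). At 3 arrays a group the median SE was 0.181, which limits what can be said of small differences.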

Other observations

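Ion channel and semaphorin genes held further changes. The calcium channel subunit Orai2 rose by 2.37 and the calcium sensor Stim1 fell by 1.47 on the log2 scale, with 133, 132 and 136 in the vehicle arrays and 35.8, 68.4 and 46.2 in the LPS arrays, but lost its call without LPS array 1 (-1.25). Sema3c, a secreted semaphorin, rose by 2.68 ± 0.34. Hdc, the enzyme that makes histamine, gave 9.56, 8.72 and 10.2 in the vehicle arrays and 298, 129.9 and 161 in the LPS arrays and rose at least 12.4-fold, while 10 of the 11 mast cell, basophil and eosinophil markers lay under the nonspecific level in all 6 arrays. Nfatc1, a factor of osteoclast formation, gave 274, 276 and 294 in the vehicle arrays and 33.6, 93.7 and 46.5 in the LPS arrays and fell by 2.42 ± 0.31. The osteoclast markers as a list went both ways. Of 9 measured, 3 were higher, Mmp9 among them, and 2 lower, Nfatc1 among them (3 and 2 under all scalings).

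Mrpl52, a mitochondrial ribosomal protein gene, differed from the rest of its list. Its 4 probe sets rose by 2.95 ± 0.15, 2.57 ± 0.16, 2.42 ± 0.21 and 2.16 ± 0.15 (log2 ± SE), while the median of the 61 mitochondrial ribosomal protein genes was -0.063. The neighbouring protein-coding gene in RefSeq (GRCm38.p6, chromosome 14, 0 protein-coding genes between them) is Mmp14, whose 2 probe sets rose by 7.06 ± 0.17 and 6.10 ± 0.17. Whether the Mrpl52 probe sets read RNA of the neighbour was not tested, so their values may not be those of Mrpl52 RNA. Both genes were chosen after their values were seen.

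Probe sets of 1 gene could disagree. Of 4756 further probe sets of called genes, 2119 passed in the same direction as the probe set used, 80 passed in the opposite direction and 2557 did not pass. In Eif4e2, chosen after its values were seen, 2 probe sets were higher by 1.41 ± 0.11 and 1.02 ± 0.16. Another was lower by 1.29 ± 0.37, with LPS array 1 inside the vehicle range.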
